A study of Mus musculus with 6 samples.

Results

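Cd274, Apol9a and Apol9b are 3 interferon-responsive mouse genes, set here against the other genes measured in NIH3T3 fibroblasts. They were picked by symbol, because their level under interferon beta (IFN-beta) was judged not lower when SPT6 was knocked down, unlike that of most interferon-stimulated genes. The values that chose them were thus those of SPT6 siRNA against control siRNA with IFN-beta, and these are given below as a description with no test. The 3 genes were among 24062 gene symbols with deposited counts, and all 3 passed the filter on low counts that left 13185 genes. In the measured values the label held with a reservation. Cd274 was above control siRNA and Apol9b level with it, whereas Apol9a was slightly below control siRNA within each replicate number.

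RNA of NIH3T3 cells, an established mouse fibroblast line grown in donor bovine serum, was sequenced as 6 libraries in 4 groups. SPT6 siRNA with IFN-beta and control siRNA with IFN-beta had 2 libraries each, called replicates 1 and 2. Untreated cells with SPT6 siRNA and untreated cells with control siRNA had 1 library each, called replicate 1. All cells were transfected with 1 siRNA for 48 h, so the controls carried a negative control siRNA, and IFN-beta was given at 100 units/ml for 4 h. By their titles the untreated libraries are 0 h samples, so the passage of 4 h and IFN-beta itself cannot be told apart. Counts in genes ran from 7935961 to 17596498 per library, and the SPT6 siRNA library was the shallower one of each pair. Nothing in the labels tells whether the replicates are separate cultures, and the p-values cover the spread among these libraries alone, which may be technical. Supt6, the gene of SPT6, stood at 108 and 88.4 CPM (counts scaled to the size of each library, TMM-adjusted) with SPT6 siRNA and IFN-beta, against 177 and 189 CPM with control siRNA and IFN-beta. Untreated it stood at 101 CPM with SPT6 siRNA and 175 CPM with control siRNA. With IFN-beta both SPT6 siRNA libraries were below both control libraries, as was so for 21.3% of genes. The log2 difference of -0.90 ± 0.18 (SE) was not called over all genes (edgeR adjusted p = 0.247).

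Cd274 encodes PD-L1, a ligand on the cell surface that binds the receptor PD-1 on T cells and restrains them. Interferons induce it in many cell types, fibroblasts included, with interferon regulatory factors such as IRF1 acting on its promoter. Apol9a and Apol9b belong to the apolipoprotein L family, whose members bind lipids. Both are known as interferon-induced genes of the mouse and have been linked to antiviral defence. Type I interferon acts through a cell surface receptor, and its signal ends at interferon-stimulated response elements near gene starts. SPT6 is a histone chaperone that travels with RNA polymerase II.

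The promoters are shown because the Apol9 genes share theirs, which bears on how independently the pair can be read. Cd274 lies on chromosome 19, 29367455 to 29388095, plus strand (GRCm38, GENCODE; protein coding). Apol9a lies on chromosome 15, 77403789 to 77411135, minus strand, and Apol9b on the same chromosome, 77729039 to 77736382, plus strand, both protein coding. The starts of the Apol9 pair are 317.9 kb apart. Promoter windows came from RefSeq (GRCm38.p6), run from 250 bases before an annotated start to 50 bases from it, and are written 5′ to 3′ on the gene's strand. All 3 genes had at least 1 window, and the first listed was used. Capitals mark matches, on either strand, to the core of the response element (TTTC, any 2 bases, TTTC) or to TTCNNTTTC, the same core without its first letter, so that each full match also holds the shorter one.
Cd274 (chr19:29367188-29367487, plus): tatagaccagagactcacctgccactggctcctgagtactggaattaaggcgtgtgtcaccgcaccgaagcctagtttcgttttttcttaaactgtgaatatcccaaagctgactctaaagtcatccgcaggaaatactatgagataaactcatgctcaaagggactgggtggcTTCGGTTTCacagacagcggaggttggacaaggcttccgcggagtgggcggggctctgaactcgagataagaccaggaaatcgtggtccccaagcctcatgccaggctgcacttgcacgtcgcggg
Apol9a (chr15:77411031-77411330, minus): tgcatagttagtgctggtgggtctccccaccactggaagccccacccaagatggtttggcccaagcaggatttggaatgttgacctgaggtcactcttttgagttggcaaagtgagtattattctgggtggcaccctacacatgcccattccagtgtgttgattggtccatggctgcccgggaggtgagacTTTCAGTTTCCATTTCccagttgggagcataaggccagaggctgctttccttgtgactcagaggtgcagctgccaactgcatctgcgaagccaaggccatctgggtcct
Apol9b, the 40 bases around its match: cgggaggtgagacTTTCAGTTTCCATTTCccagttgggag

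The Apol9a and Apol9b windows overlapped over 278 bases once shifted by 22, and all 278 were identical. In each, 2 overlapping full cores were found, the first starting 59 bases before the annotated start of Apol9a and 37 bases before that of Apol9b. The Cd274 window held no full core and 1 shorter match, starting 76 bases before its start. No window held TTCNNNGAA, the gamma-activated sequence. The full core was present in 3.44% of 32851 promoter windows of the table, the shorter form in 8.56% and the gamma-activated sequence in 8.3%. A match describes letters and does not show a bound site.

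Under IFN-beta the level of each gene with SPT6 siRNA was close to or above that with control siRNA. Cd274 was at 17.8 CPM in replicate 1 and 19.7 CPM in replicate 2 with SPT6 siRNA, against 16.1 and 15.02 CPM with control siRNA. Both SPT6 siRNA libraries lay above both control libraries, as was the case for 22.7% of the 13185 genes. Counting the untreated pair as well, none of the 3 genes was above control siRNA in each of 3 pairs, as 25.8% of genes were. The mean was 18.7 CPM ± 1.28 with SPT6 siRNA and 15.6 CPM ± 0.774 with control siRNA (SD, n = 2 each), and the log2 difference was 0.27 ± 0.22 (SE of the fit over all libraries). In replicate 1 the SPT6 siRNA library was 1.11 times the control library (95% counting interval 0.902 to 1.36), and in replicate 2 it was 1.31 times (1.09 to 1.57). SPT6 siRNA was the higher of the pair in both replicates.

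Apol9a, the more abundant of the Apol9 pair in counts, was at 28.4 and 22.4 CPM with SPT6 siRNA and IFN-beta, against 31.8 and 22.97 CPM with control siRNA and IFN-beta. The groups overlapped, since SPT6 siRNA replicate 1 lay above control replicate 2. Within replicate 1 the ratio of SPT6 siRNA to control siRNA was 0.893 (0.765 to 1.04) and within replicate 2 it was 0.973 (0.828 to 1.14). The log2 difference was -0.11 ± 0.25 (SE). It was 0.16 without control siRNA replicate 1 and 0.05 without SPT6 siRNA replicate 2, so its sign rested on single libraries. Apol9b was at 19.5 and 15.9 CPM with SPT6 siRNA, against 19.5 and 15.97 CPM with control siRNA. Its ratio was 0.999 (0.824 to 1.21) in replicate 1 and 0.997 (0.822 to 1.21) in replicate 2, the groups overlapped, and the log2 difference was -0.0030 ± 0.24 (SE). That sign turned with library-size scaling (0.08), with a count minimum of 30 (0.02), without control siRNA replicate 1 (0.16) and without SPT6 siRNA replicate 2 (0.13).

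**Figure D1:**
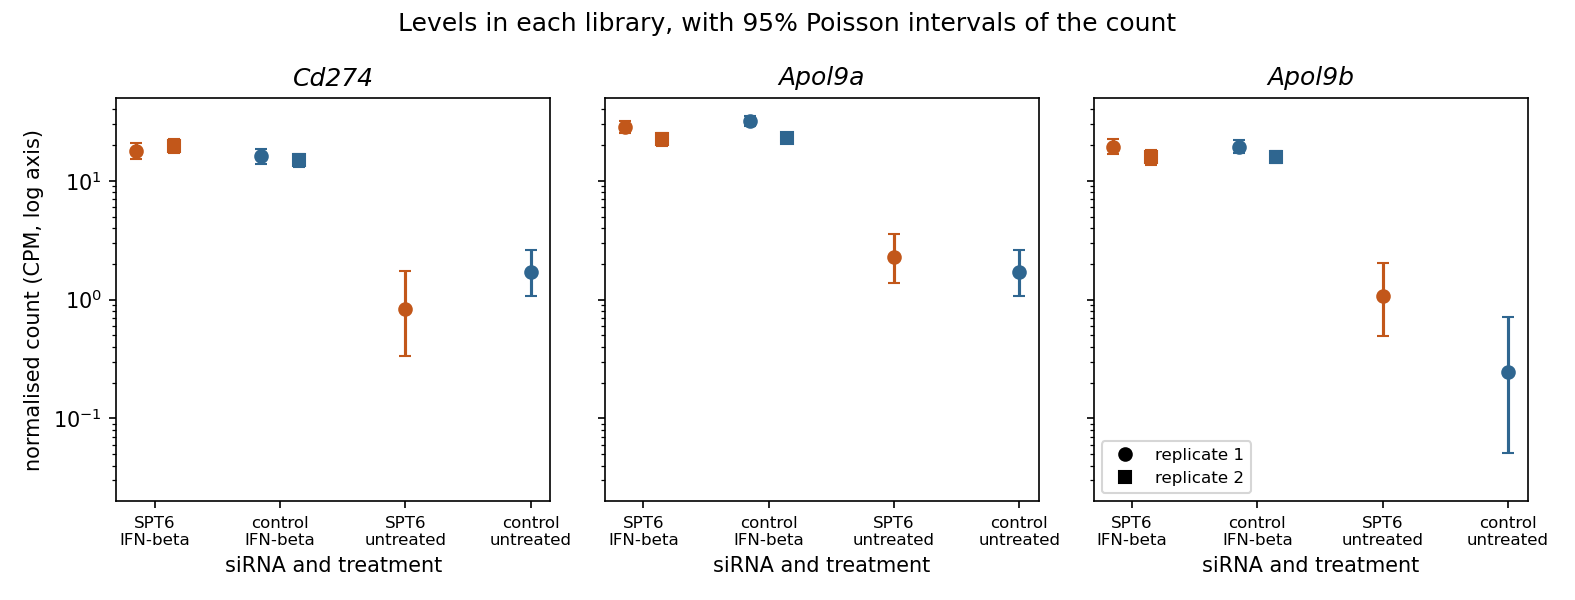
Normalised count (CPM, log axis) of Cd274, Apol9a and Apol9b in each of 6 libraries, by siRNA and treatment; circles are replicate 1, squares replicate 2, and bars are 95% Poisson intervals of the count. With IFN-beta, SPT6 siRNA and control siRNA libraries lie at similar heights for the Apol9 pair, and both SPT6 siRNA libraries of Cd274 (17.8 and 19.7 CPM) lie above both control libraries (16.1 and 15.02 CPM).

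**Figure D2:**
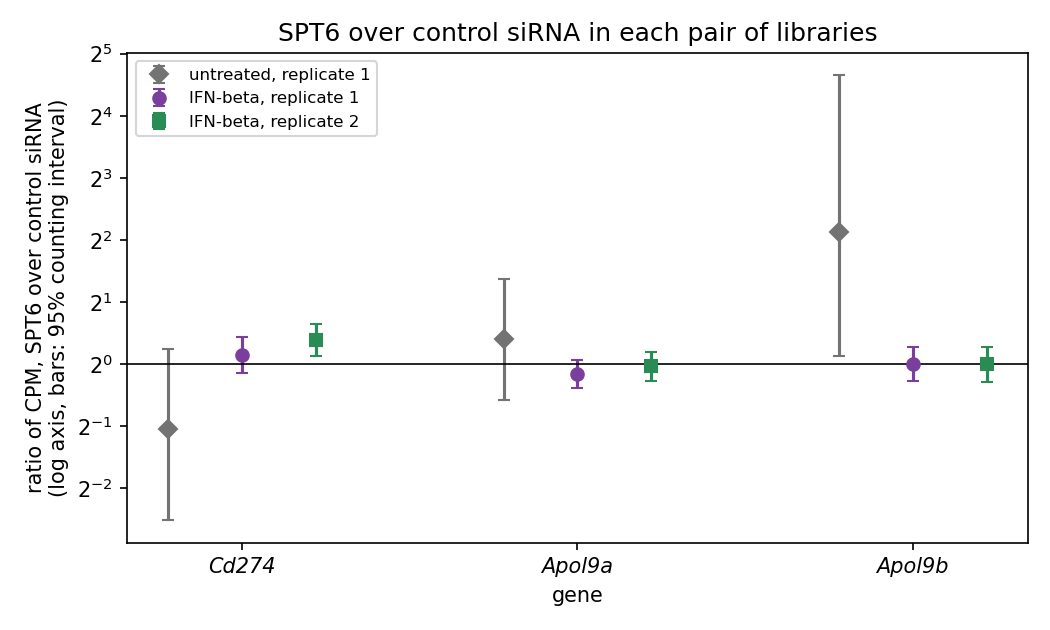
Ratio of SPT6 siRNA to control siRNA (log axis) for each gene in the untreated pair and the 2 IFN-beta pairs, with 95% counting intervals. The IFN-beta ratios run from 0.893 to 1.31, and the untreated ratios spread from 0.486 for Cd274 to 4.38 for Apol9b with wide intervals.

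The interferon list was centred below 0 for SPT6 siRNA over control siRNA, and the chosen genes stood near the top of that order by construction. Of 103 tested genes in a list of interferon-stimulated genes, which holds the 3 genes themselves, 94 had a log2 difference below 0 and 9 a difference above it, where 48% of all genes tested were at or above 0. The list's median was -0.47 (quartiles -0.58 and -0.28), against -0.017 over all genes. Cd274 ranked 2 from the top, Apol9b ranked 10 and Apol9a ranked 13. The list's median was 0.04 without control siRNA replicate 1, where Cd274 was at 0.33, Apol9a at 0.16 and Apol9b at 0.16. It was -0.08 without SPT6 siRNA replicate 2, where Cd274 was at 0.19, Apol9a at 0.05 and Apol9b at 0.13. Without control siRNA replicate 2 it was -0.78, with Cd274 at 0.22, Apol9a at -0.33 and Apol9b at -0.14, and without SPT6 siRNA replicate 1 it was -1.01, with Cd274 at 0.32, Apol9a at -0.31 and Apol9b at -0.17. With the replicate block it was -0.47. In each of these fits the 3 genes lay above the list's median, by less in the first and second. The fits reuse the contrast that chose the genes, so this position is a description and no support. By edgeR's quasi-likelihood test 0% of genes were called for SPT6 siRNA against control siRNA with IFN-beta (0 of 13185), while 1538 had an unadjusted p under 0.05, DESeq2 called 62 and limma-voom 0.

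Around a difference of 0 the list held genes of antigen presentation and of interferon signalling. Just above it were the class I heavy chain gene H2-K1 (0.05 ± 0.33, SE), the peptide loading gene Tapbp (0.05 ± 0.22) and Nmi, an interferon-induced gene (0.07 ± 0.40). Just below it, next to Apol9b, were the transcription factor gene Irf1 (-0.09 ± 0.17) and Nlrc5, a regulator of class I genes (-0.11 ± 0.28). These neighbours in the order did not differ beyond their standard errors. H2-K1 and Tapbp responded little to IFN-beta with control siRNA (log2 0.35 and 0.62), unlike the 3 chosen genes. Nmi (1.29), Irf1 (1.59) and Nlrc5 (2.30) responded more, though less than the 3 chosen genes. Among the 93 list genes with a control response of log2 1 or more, 4 were above 0 and 89 below. The 4 were Cd274, Nmi, Slfn2 (0.18 ± 0.69, response 3.18) and Ccl7 (0.19 ± 0.25, response 2.40). Apol9a and Apol9b were among the 89, so a level close to that of control siRNA was not particular to the chosen genes.

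**Figure D3:**
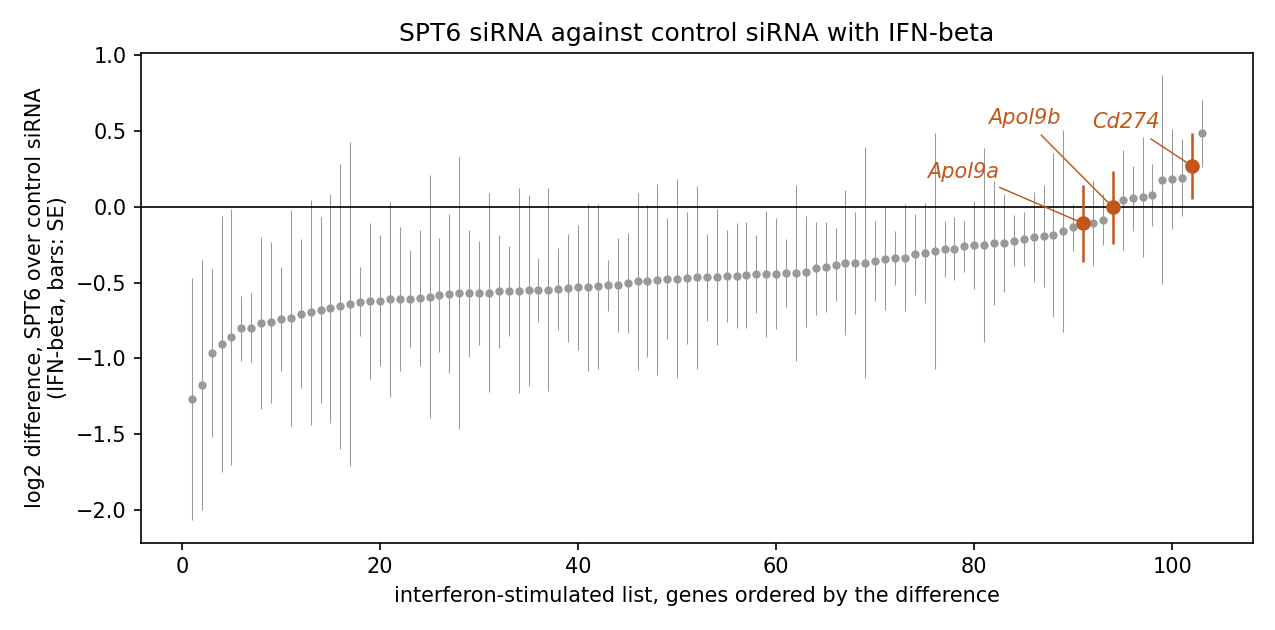
Log2 difference of SPT6 siRNA over control siRNA with IFN-beta (points, bars are SE) for the 103 tested genes of the interferon list, ordered from lowest to highest. Cd274 stands at 0.27, Apol9b at -0.0030 and Apol9a at -0.11, against a list median of -0.47.

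A RefSeq promoter was found for 76 of the 103 list genes, and 40 of these (52.6%) held the full response element core in at least 1 window. The median SPT6 difference was -0.47 for the 40 genes with the core and -0.42 for the 36 without. The number at or above 0 was 1 of 40 with the core and 6 of 36 without it. These are counts over a list of genes that share libraries and were not tested. They use the contrast that chose the 3 genes, and Cd274 is among the 6. Of the 9 list genes at or above 0, with or without a promoter, 4 had a control response of log2 1 or more. The size of the response was not held equal between genes with and without the core.

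In untreated cells the levels were low and rested on 1 library against 1, with no replicate check. Cd274 had 7 counts with SPT6 siRNA (0.839 CPM) and 21 counts with control siRNA (1.73 CPM), a ratio of 0.486 (95% counting interval 0.175 to 1.19). Apol9a had 19 counts with SPT6 siRNA (2.28 CPM) and 21 counts with control siRNA (1.73 CPM), a ratio of 1.32 (0.671 to 2.58). Apol9b had 9 counts with SPT6 siRNA (1.08 CPM) and 3 counts with control siRNA (0.247 CPM), a ratio of 4.38 (1.09 to 25.1). The library with SPT6 siRNA was the lower one for Cd274 and the higher one for the Apol9 pair.

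Each gene was higher with IFN-beta than without it, under either siRNA. These responses were not the contrast of the rule, but they share its IFN-beta libraries and the genes were chosen with them known, so they are no independent support. All 3 genes rose with control siRNA in edgeR's quasi-likelihood test, where 0.137% of the 13185 genes were called higher. With SPT6 siRNA 1 of the 3, Cd274, passed, where 0.0455% of genes were called higher. Each untreated group has 1 library, which the fit assumes to vary like the IFN-beta libraries.

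The Cd274 response was log2 4.46 ± 0.40 (SE) with SPT6 siRNA (Benjamini-Hochberg adjusted p = 0.0389, edgeR) and 3.16 ± 0.34 with control siRNA (adjusted p = 0.0436). Both calls sat close to the threshold. The call with SPT6 siRNA was lost without control siRNA replicate 1 (adjusted p = 0.0558, edgeR) and without SPT6 siRNA replicate 1 (adjusted p = 0.0558), within a range over the alternatives of 2.7e-23 to 0.307. The call with control siRNA was lost without control siRNA replicate 1 (adjusted p = 0.102, edgeR) or replicate 2 (adjusted p = 0.062), within a range of 2.74e-18 to 0.138. As a plain ratio, the mean IFN-beta level was 22.3 times the untreated level with SPT6 siRNA (counting interval of the untreated library 10.8 to 55.6) and 9.02 times with control siRNA (5.90 to 14.6).

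The Apol9a response was 3.47 ± 0.41 with SPT6 siRNA (adjusted p = 0.071, edgeR) and 3.98 ± 0.41 with control siRNA (adjusted p = 0.0413). The call with control siRNA was lost without control siRNA replicate 1 (adjusted p = 0.0659, edgeR), and the response with SPT6 siRNA passed without SPT6 siRNA replicate 2 (adjusted p = 0.0476), within ranges of 9.89e-37 to 0.154 and of 2.63e-26 to 0.407. In plain ratios the IFN-beta level was 11.1 times the untreated level with SPT6 siRNA (7.14 to 18.5) and 15.9 times with control siRNA (10.4 to 25.7). The Apol9b response was 4.02 ± 0.42 with SPT6 siRNA (adjusted p = 0.0503, edgeR), which missed the threshold narrowly and passed without SPT6 siRNA replicate 2 (adjusted p = 0.0423; range over the alternatives 1.2e-22 to 0.374). With control siRNA the fitted value was 6.11 ± 0.50 (adjusted p = 0.0182, edgeR; range 8.85e-37 to 0.149), and with 3 untreated counts its ratio was 71.9 with a counting interval of 24.6 to 349. With SPT6 siRNA the ratio was 16.4 (8.64 to 35.9).

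Similar IFN-beta levels thus stood beside unlike ratios to the untreated level. The response with SPT6 siRNA minus that with control siRNA was log2 1.30 ± 0.52 (SE) for Cd274, -0.51 ± 0.55 for Apol9a and -2.09 ± 0.71 for Apol9b. These differences contain the contrast that chose the genes and are given with no test. They equal the SPT6 difference with IFN-beta minus that of the untreated pair, which was -1.03 ± 0.47 for Cd274, 0.40 ± 0.49 for Apol9a and 2.08 ± 0.66 for Apol9b. The unlike ratios therefore came mainly from the untreated libraries, with 7 against 21 counts for Cd274 and 9 against 3 counts for Apol9b. As point values, the ratios to the untreated level were larger with SPT6 siRNA for Cd274 and smaller for the Apol9 pair. The counting intervals with SPT6 siRNA and with control siRNA overlapped in each gene.

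**Figure D4:**
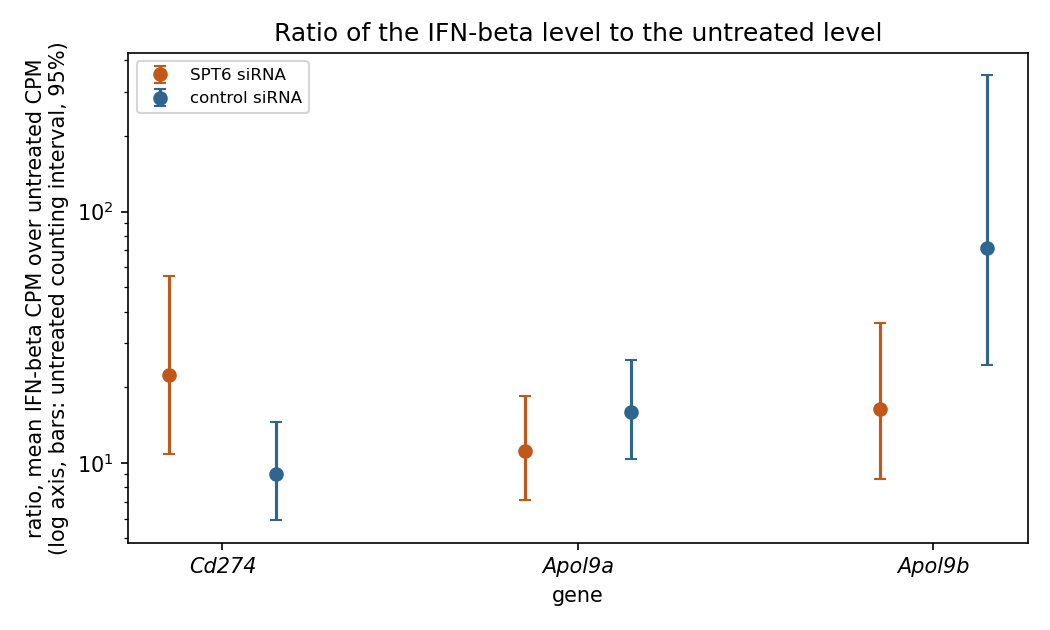
Ratio of the mean IFN-beta level to the untreated level (log axis) with SPT6 siRNA and with control siRNA; bars are the 95% counting interval of the untreated library alone. Cd274 shows 22.3 against 9.02, Apol9a 11.1 against 15.9 and Apol9b 16.4 against 71.9, with overlapping intervals in each gene.

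The split of reads within the Apol9 pair is uncertain. Their longest coding transcripts in GENCODE, of 1530 bases for Apol9a and 1573 bases for Apol9b, were identical at 1452 of 1475 aligned bases (98.4%). Of all stretches of 50 bases in the Apol9a transcript, 57.5% also occurred in Apol9b transcripts, and 41.1% of stretches of 100 bases did. For Apol9b, 51.4% of stretches of 50 bases and 34.9% of those of 100 bases occurred in Apol9a transcripts. The read length was not given in the sources used here. Alignments of reads that align in several places made up 27.9% to 31.3% of all that was tallied in the deposited counts, and are in no gene's count. Part of Cd274 is overlapped on the opposite strand by the antisense RNA AC119228.1, and since strand use in the counting was not stated, their reads cannot be told apart.

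Taken as 1 gene, the Apol9 pair had 470 and 440 counts with SPT6 siRNA and IFN-beta (47.9 and 38.3 CPM), against 682 and 656 counts with control siRNA and IFN-beta (51.3 and 38.9 CPM). Untreated it had 28 counts with SPT6 siRNA (3.36 CPM) and 24 counts with control siRNA (1.97 CPM). The groups with IFN-beta overlapped, and the log2 difference of SPT6 siRNA over control siRNA was -0.07 ± 0.22 (SE). The summed response was 3.68 ± 0.36 with SPT6 siRNA (adjusted p = 0.0487, edgeR) and 4.51 ± 0.38 with control siRNA (adjusted p = 0.0205), so that both passed. The wide gap between responses seen for Apol9b alone came to -0.83 ± 0.48 for the sum. Apol9b made up 40.6% and 41.6% of the sum with SPT6 siRNA and IFN-beta, 38% and 41% with control siRNA and IFN-beta, 32.1% in untreated cells with SPT6 siRNA and 12.5% in those with control siRNA.

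Per kilobase of the longest coding transcript, Apol9a was the highest of the 3 genes in every library and Cd274 the lowest with IFN-beta. Apol9a had 18.6 and 14.6 CPM per kb with SPT6 siRNA and IFN-beta, against 20.8 and 15.01 CPM per kb with control siRNA and IFN-beta. Apol9b followed with 12.4 and 10.1 CPM per kb with SPT6 siRNA, against 12.4 and 10.2 with control siRNA. Cd274 had 4.93 and 5.43 CPM per kb with SPT6 siRNA, against 4.45 and 4.15 with control siRNA. The ranges of the 3 genes over the 4 IFN-beta libraries did not overlap. In the untreated SPT6 siRNA library Cd274 was lowest at 0.232 CPM per kb, and in the untreated control library Apol9b was lowest at 0.157. Within each gene the order of the groups was the IFN-beta groups, close together, and then the untreated ones.

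The 3 genes also differed in how the numbered libraries compared. Over the interferon list, replicate 2 was lower than replicate 1 by a median log2 of -0.86 with SPT6 siRNA and -0.74 with control siRNA. Cd274 differed by 0.14 with SPT6 siRNA and -0.10 with control siRNA. Apol9a differed by -0.35 with SPT6 siRNA and -0.47 with control siRNA, and Apol9b by -0.29 with either siRNA. All 3 genes were thus nearer to 0 than the list's median in this respect. The median over all genes was -0.00054 with SPT6 siRNA and 0.017 with control siRNA.

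Genes with the most similar profile were sought by the root-mean-square distance of centred log2 CPM over the 6 libraries. Nearest to Cd274 were Ifi203 (distance 0.36 log2 units), AI607873 (0.39) and Dtx3l (0.39). Ifi203 and Ifi205 belong to the interferon-inducible Ifi200 family, and Dtx3l encodes a ubiquitin ligase. AI607873 was at 42.8 and 45.3 CPM with SPT6 siRNA and IFN-beta, against 47.8 and 37.7 CPM with control siRNA and IFN-beta, overlapping groups. Ifi203 was at 128 and 104 CPM with SPT6 siRNA, against 151 and 131 CPM with control siRNA, with no overlap, like 21.3% of genes in that direction. Nearest to Apol9a were Ifi205 (0.13), Ifi203 (0.17) and Dtx3l (0.20), with Cd274 at rank 21 and Apol9b at rank 39. Nearest to Apol9b were 9930111J21Rik1 (0.35), Irgm1 (0.48) and Gbp2b (0.49), the last a pair of interferon-inducible GTPase genes, with Apol9a at rank 8. 9930111J21Rik1 was at 16.3 and 15.6 CPM with SPT6 siRNA and IFN-beta, against 13.6 and 7.42 CPM with control siRNA and IFN-beta. Its untreated level was 0.959 CPM with SPT6 siRNA and 0.164 CPM with control siRNA, like Apol9b the higher one with SPT6 siRNA. The points share 6 libraries, and the untreated values of all these genes rest on 1 library per siRNA.

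None of the tested genes around Cd274 was called. Within 200 kb of its start lay 8 annotated genes, of which 6 had counts and 3 were tested. Plgrkt, a plasminogen receptor gene, starts 65 bases from Cd274 on the opposite strand. It was at 34.8 and 28.9 CPM with SPT6 siRNA and IFN-beta, 29.0 CPM untreated with SPT6 siRNA, 34.9 and 28.01 CPM with control siRNA and IFN-beta, and 30.5 CPM untreated with control siRNA. Its response was 0.13 ± 0.26 with SPT6 siRNA (adjusted p = 0.953, edgeR) and 0.04 ± 0.25 with control siRNA (adjusted p = 0.972). Jak2, a kinase of cytokine receptors 115.6 kb away, had responses of 0.53 ± 0.29 with SPT6 siRNA (adjusted p = 0.886, edgeR) and 0.53 ± 0.28 with control siRNA (adjusted p = 0.666). A930007I19Rik, an antisense RNA with at most 21 counts in a library, had responses of 0.76 ± 0.62 with SPT6 siRNA and -1.10 ± 0.61 with control siRNA. Pdcd1lg2, which encodes PD-L2, the other PD-1 ligand, starts 43.5 kb away and had at most 1 count in any library.

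In the APOL family the response was spread unevenly. Of 14 listed genes 8 were tested, and 8 had a response above 0 with SPT6 siRNA and 7 with control siRNA. Over all 13185 genes, 6679 were above 0 with SPT6 siRNA and 6508 with control siRNA. The count minimum of 10 is scaled to library depth. Apol11b met it only in SPT6 siRNA replicate 1 with IFN-beta, so its response above 0 with SPT6 siRNA was partly fixed in advance. Apol7d met it only with SPT6 siRNA, both untreated and with IFN-beta. Of the 8, edgeR called 0 with SPT6 siRNA and 2 with control siRNA, the Apol9 pair. Over all genes it called 0.0455% higher with SPT6 siRNA and 0.137% with control siRNA. At an unadjusted p under 0.05, 4 of the 8 were higher with SPT6 siRNA and 4 with control siRNA, where 3.84% of all genes were higher with SPT6 siRNA and 5.29% with control siRNA. DESeq2 called 3 with either siRNA, where it called 0.978% of all genes with SPT6 siRNA and 1.55% with control siRNA, and limma-voom called 0. The family's median was 1.43 with SPT6 siRNA and 1.74 with control siRNA, against 0.0050 with SPT6 siRNA and -0.0053 with control siRNA over all genes. Apol6 was at 27.5 and 15.2 CPM with SPT6 siRNA and IFN-beta, against 50.1 and 21.5 CPM with control siRNA and IFN-beta. Its responses were 2.38 ± 0.71 with SPT6 siRNA (adjusted p = 0.751, edgeR) and 2.31 ± 0.67 with control siRNA (adjusted p = 0.481).

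Apol7a, whose start is 12 kb from that of Apol9a, was at 11.62 and 12.004 CPM with SPT6 siRNA and IFN-beta, against 11.7 and 8.43 CPM with control siRNA and IFN-beta. The groups overlapped, and its response was 1.34 ± 0.37 with SPT6 siRNA (adjusted p = 0.683, edgeR) and 1.72 ± 0.38 with control siRNA (adjusted p = 0.294). Apol10b was at 11.1 and 2.09 CPM with SPT6 siRNA, against 21.7 and 4.63 CPM with control siRNA, with replicate 2 far below replicate 1 in both groups. Its responses were 1.52 ± 1.52 with SPT6 siRNA (adjusted p = 0.902, edgeR) and 1.76 ± 1.39 with control siRNA (adjusted p = 0.773). Apol11b had at most 11 counts in a library and responses of 1.24 ± 1.77 with SPT6 siRNA and 1.27 ± 1.75 with control siRNA. Apol7d, with at most 19 counts, had responses of 0.82 ± 0.71 with SPT6 siRNA and 0.47 ± 1.04 with control siRNA. Apold1 had at most 22 counts and responses of 0.49 ± 1.03 with SPT6 siRNA and -1.38 ± 0.99 with control siRNA. Beyond the APOL genes, the tested genes within 200 kb of the Apol9 starts were Rbfox2, the myosin heavy chain gene Myh9 and Txn2, none of which was called with either siRNA.

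**Figure D5:**
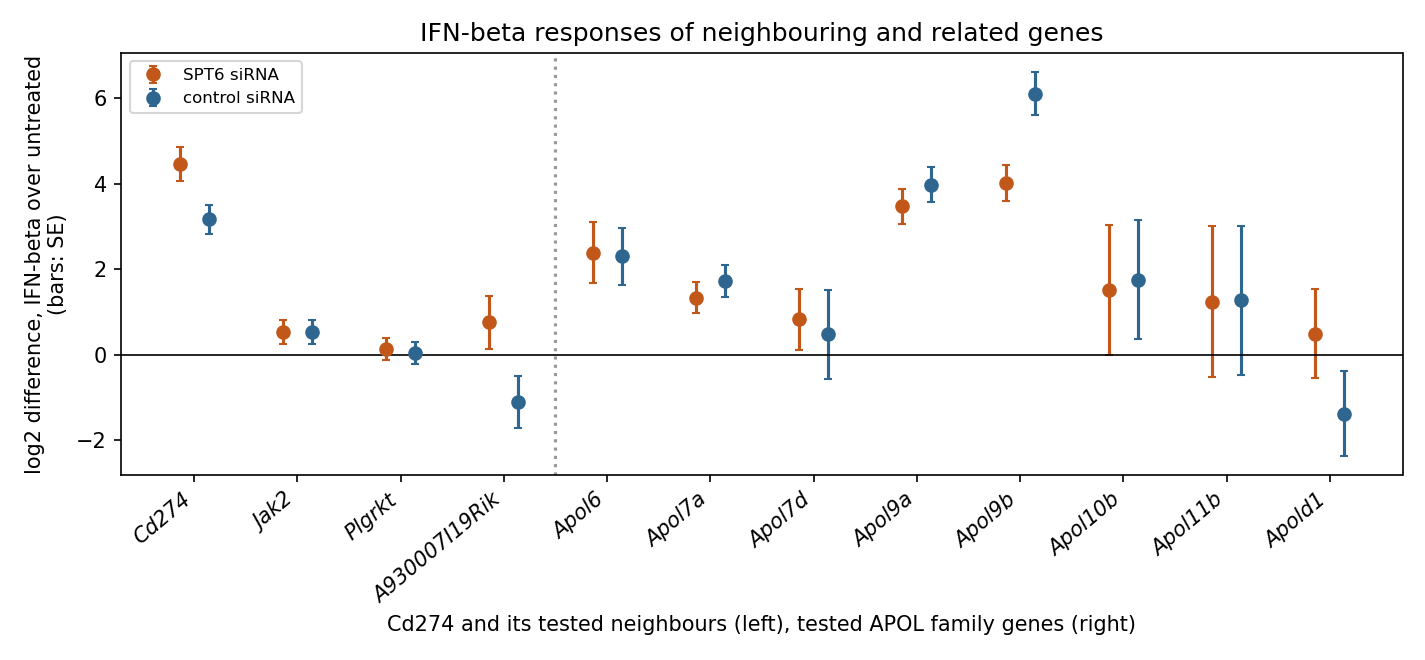
Log2 difference of IFN-beta over untreated with SPT6 siRNA and with control siRNA (points, bars are SE) for Cd274 and its tested neighbours and for the tested APOL family genes. Plgrkt and Jak2 lie near 0 beside Cd274 (4.46 with SPT6 siRNA, 3.16 with control siRNA), and Apol9a and Apol9b lie above the other APOL genes.

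Among relatives of Cd274 in the B7 and PD-1 family no other gene was called. Of 13 listed genes 10 had counts and 7 were tested, and Cd274 was the single one called, with either siRNA. Of all genes, edgeR called 0.0455% higher with SPT6 siRNA and 0.137% with control siRNA. Cd276, which encodes B7-H3, was the most highly counted, at 56.5 and 46.8 CPM with SPT6 siRNA and IFN-beta, against 61.1 and 63.0 CPM with control siRNA and IFN-beta. Its response was 0.02 ± 0.23 with SPT6 siRNA (adjusted p = 0.994, edgeR) and -0.04 ± 0.22 with control siRNA (adjusted p = 0.966). Cd80, a ligand of CD28 and of PD-L1 itself, had 16 and 18 counts with SPT6 siRNA and IFN-beta, against 15 and 17 counts with control siRNA and IFN-beta, and responses of 0.27 ± 0.58 with SPT6 siRNA and -0.69 ± 0.53 with control siRNA. Icosl had responses of -1.16 ± 0.77 with SPT6 siRNA and -1.13 ± 0.64 with control siRNA, and Btn2a2 of -0.32 ± 1.90 with SPT6 siRNA and -2.47 ± 1.01 with control siRNA. Btn1a1 had responses of -1.21 ± 0.81 with SPT6 siRNA and 0.62 ± 1.53 with control siRNA, and Vtcn1 of 1.4997 ± 0.89 with SPT6 siRNA and -1.002 ± 0.91 with control siRNA, both at 13 counts or fewer in a library. Btn2a2 met the count filter only through the untreated control library, and Icosl only through untreated libraries. Vtcn1 met it only through the SPT6 siRNA libraries with IFN-beta. The Icosl responses, the Btn2a2 response with control siRNA and the Vtcn1 response with SPT6 siRNA thus had signs partly fixed in advance. The median of the 7, which takes these in, was 0.02 with SPT6 siRNA and -0.69 with control siRNA. Pdcd1, the gene of PD-1, and Cd86 had at most 1 count in any library.

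Of genes whose products act on PD-L1 protein, 18 were tested. None was called with either siRNA (0 by edgeR, 0 by DESeq2 and 0 by limma-voom), and at an unadjusted p under 0.05 there were 0 higher with SPT6 siRNA and 1 with control siRNA, where 3.84% of all genes were higher with SPT6 siRNA and 5.29% with control siRNA, so these counts were near the background. Their median response was 0.13 with SPT6 siRNA and 0.11 with control siRNA. Cmtm6, which protects PD-L1 from degradation, had responses of 0.32 ± 0.30 with SPT6 siRNA and 0.11 ± 0.29 with control siRNA. Hip1r, which directs PD-L1 to lysosomes, had responses of 0.59 ± 0.27 with SPT6 siRNA (adjusted p = 0.864, edgeR) and 0.91 ± 0.27 with control siRNA (adjusted p = 0.465). Among 13 other transcription factors linked to Cd274, 0 were called by edgeR, DESeq2 or limma-voom with either siRNA, and 1 with SPT6 siRNA (3.84% of all genes) and 3 with control siRNA (5.29% of all genes) were higher at an unadjusted p under 0.05. Their median was 0.16 with SPT6 siRNA and -0.01 with control siRNA, and Jun had 0.47 ± 0.25 with SPT6 siRNA and 0.99 ± 0.25 with control siRNA.

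Upstream of the 3 genes, 0 of 20 tested interferon signalling genes were called with SPT6 siRNA and 2 with control siRNA by edgeR. The shares of all genes called higher were 0.0455% with SPT6 siRNA and 0.137% with control siRNA. DESeq2 called 5 with SPT6 siRNA (0.978% of all genes) and 7 with control siRNA (1.55% of all genes), and limma-voom called 0. At an unadjusted p under 0.05, 7 with SPT6 siRNA (3.84% of all genes) and 8 with control siRNA (5.29% of all genes) were higher. Their median was 0.21 with SPT6 siRNA and 0.45 with control siRNA. Irf9 had a response of 3.13 ± 0.37 with SPT6 siRNA (adjusted p = 0.071, edgeR) and 3.22 ± 0.36 with control siRNA (adjusted p = 0.0436). With IFN-beta its SPT6 difference was -0.38 ± 0.24. Irf7, an interferon regulatory factor gene, had responses of 6.32 ± 0.67 with SPT6 siRNA (adjusted p = 0.0503, edgeR) and 5.19 ± 0.55 with control siRNA (adjusted p = 0.0432), and an SPT6 difference of -0.40 ± 0.31. Irf1, the factor best known for acting on Cd274, was at 90.6 and 81.3 CPM with SPT6 siRNA and IFN-beta, against 90.5 and 92.0 CPM with control siRNA and IFN-beta.

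Cells of other types were looked for because myeloid cells are rich in PD-L1. All 10 fibroblast markers were counted in every library, and their summed level was 12681 and 12156 CPM with SPT6 siRNA and IFN-beta, against 18252 and 15968 CPM with control siRNA and IFN-beta. Of 9 macrophage and dendritic cell markers with counts, the sum was 17.5 and 19.5 CPM with SPT6 siRNA and IFN-beta, against 9.56 and 8.07 CPM with control siRNA and IFN-beta. Untreated, it was 15.7 CPM with SPT6 siRNA and 11.1 CPM with control siRNA, where Cd274 was at 0.839 CPM with SPT6 siRNA and 1.73 CPM with control siRNA. Cd68 alone was at 7.75 and 9.92 CPM with SPT6 siRNA and IFN-beta, against 2.71 and 2.20 CPM with control siRNA and IFN-beta. Of the 5 tested markers of that list, 4 had both SPT6 siRNA libraries above both control libraries with IFN-beta, as did 22.7% of all genes. Among them Fcgr1 met the count filter only through an SPT6 siRNA library, so its place was partly fixed in advance. Lyz2, the remaining tested marker, went the other way. It had 10 and 0 counts with SPT6 siRNA and IFN-beta, against 15 and 6 counts with control siRNA and IFN-beta. The defining leukocyte gene Ptprc had 0 and 1 counts with SPT6 siRNA and IFN-beta, against 3 and 1 counts with control siRNA and IFN-beta. T and B cell markers summed to 1.12 and 1.65 CPM with SPT6 siRNA and IFN-beta, against 0.301 and 0.534 CPM with control siRNA and IFN-beta. Endothelial markers summed to 3.47 and 5.91 CPM with SPT6 siRNA and IFN-beta, against 4.14 and 1.66 CPM with control siRNA and IFN-beta, and epithelial ones to 0.918 and 2.44 CPM with SPT6 siRNA and IFN-beta, against 0.602 and 0.475 CPM with control siRNA and IFN-beta. Their part in the Cd274 values was not tested. The cells were an established fibroblast line, so these sums are no measure of how many cells of another type were present.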

How the data were processed

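The authors deposited whole-number counts per gene symbol, 1 file per library, not normalised. TopHat2 2.1.0, HTSeq 0.6.1p1, DESeq2 and the builds mm10 and GRCm38 are named per the submitters' processing notes, without roles. Annotation and strand setting: not given in the sources used here. Lines that name no gene stayed out of library sizes. Those in no annotated feature were 33.8% to 37.5% of all that was tallied in the deposited counts.

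Genes were kept by edgeR's filterByExpr with a count minimum of 10. CPM values used TMM scaling. R 4.3.3 and edgeR 4.0.16 tested differences by quasi-likelihood (robust glmQLFit, then glmQLFTest). The model had 1 mean for each of 4 groups, took in 6 libraries, had no replicate block and left 2 residual degrees of freedom. Calls had a Benjamini-Hochberg adjusted p under 0.05 over all genes. A standard error was obtained by dividing a log2 difference by the root of its F statistic. Log2 CPM used a prior count of 2. Counting intervals are exact Poisson or, for ratios of counts of 2 libraries, exact binomial at 95%, and cover counting error only. The script was tested on simulated counts. The same-group IFN-beta libraries were not duplicates (chi-square per degree of freedom 34.7 with SPT6 siRNA and 39.4 with control siRNA).

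Named genes were the 3 genes, the 3 nearest profiles of each, list genes nearest a difference of 0, tested APOL and B7 genes, neighbours within 200 kb, and up to 3 genes of other lists with the smallest p. Cmtm6, Cd68, Lyz2, Fcgr1, Ptprc, Pdcd1, Cd86, Slfn2 and Ccl7 were named beyond that rule, after their values were seen. The genes, lists and rules were chosen with earlier results of these data known. Alternatives covered scaling, tool, count filter, replicate block, each IFN-beta library left out and a summed Apol9 row, with DESeq2 1.42.0 and limma 3.58.1.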

Additional observations from a re-analysis of the deposited data

How the results depend on the processing

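The direction of the 6 responses of Cd274, Apol9a and Apol9b was the same under every alternative run, while their side of the threshold was not. limma-voom gave 3.14 (Cd274), 3.93 (Apol9a) and 5.94 (Apol9b) with control siRNA and 4.39 for Cd274 with SPT6 siRNA, none of them called. A count minimum of 30 gave 3.15 (Cd274) and 3.96 (Apol9a) with control siRNA, no longer called. With SPT6 siRNA, calls were gained for Apol9a with DESeq2 (3.48), no count filter (3.49), the replicate block (3.67) and the summed pair (3.68). They were likewise gained for Apol9b with library-size scaling (3.97), DESeq2 (4.04), no count filter (4.04), the replicate block (4.16) and the summed pair (3.68). Leaving out 1 IFN-beta library at a time gave ranges with SPT6 siRNA of 4.38 to 4.53 (Cd274), 3.28 to 3.62 (Apol9a) and 3.87 to 4.14 (Apol9b), and with control siRNA of 3.10 to 3.21, 3.72 to 4.197 and 5.95 to 6.24. The interferon list's median SPT6 difference ran from -1.01 to 0.040. The cause was not tested.

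Genes called with SPT6 siRNA numbered 6, and 12 with library-size scaling, 129 with DESeq2, 0 with limma-voom, 46 with no count filter, 545 with the replicate block and 9 to 25 with 1 library left out. With control siRNA they numbered 18, and 204 with DESeq2, 5 with limma-voom, 77 with no count filter, 10 at a count minimum of 30, 957 with the replicate block and 16 to 52 with 1 library left out. For SPT6 siRNA against control siRNA with IFN-beta the count was 0, and 62 with DESeq2, 66 with no count filter and 2638 with the replicate block. The replicate numbers are not said to mark a shared day or batch, and with 2 pairs the correlation of same-numbered deviations (0.56) does not settle whether they pair the samples. Depth limits the untreated values, which rest on 3 to 21 counts.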

Other observations

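Among the relatives of the 3 genes, some that were barely counted were higher with SPT6 siRNA, as values singled out after they were seen. Apol7d, of the APOL family, had 13 and 19 counts with SPT6 siRNA and IFN-beta, against 3 and 4 counts with control siRNA and IFN-beta, and 7 against 2 counts untreated. Btn1a1, a butyrophilin gene of the B7 family, had 9 and 5 counts with SPT6 siRNA and IFN-beta, against 1 and 3 counts with control siRNA and IFN-beta, and 13 against 1 untreated. Vtcn1, which encodes the T cell inhibitor B7-H4, had 11 and 11 counts with SPT6 siRNA, against 3 and 3 with control siRNA with IFN-beta, and 3 against 5 untreated. With IFN-beta the log2 differences were 2.63 ± 0.62 (SE) for Apol7d, 2.25 ± 0.88 for Btn1a1 and 2.32 ± 0.68 for Vtcn1. None was called by edgeR over all genes. Apol7d, Btn1a1 and Vtcn1 met the count filter, with its minimum of 10, only through SPT6 siRNA libraries. Their higher level with SPT6 siRNA was thus partly fixed in advance, and these values are a description with no test. SPT6 siRNA was above control siRNA in each of the 3 pairs for Apol7d and Btn1a1, as for 25.8% of all genes tested.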
